A study of Mus musculus with 2 samples.

Results

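Macrophages that express Mrc1 and Pf4 were described among CD45-sorted cells of mouse retinas, each sequenced on its own. Members were chosen by counts: at least 2 UMIs (unique molecular identifiers, 1 per captured transcript) of Mrc1 and Pf4 together, at least 1 count of Ms4a7, Cbr2, Folr2, Cd163, Lyve1 or F13a1, and 0 of Cd79a or Cd3g. A barcode entered with 500 UMIs and 250 genes or more, and a mitochondrial share of 15% or less. The rule found 115 macrophages among 4456 barcodes. There were 49 of 1761 in the library labelled knockout (2.78%, exact Clopper-Pearson interval 2.065 to 3.662) and 66 of 2695 in the library labelled wildtype (2.45%, interval 1.899 to 3.105).

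The 2 libraries were 1 labelled as a knockout of Igfbpl1, a gene related to the binding proteins of insulin-like growth factors, and 1 labelled wildtype, both from C57BL/6 mice. Both groups were perfused with PBS and sorted on CD45, a leukocyte surface protein that microglia also carry. The design text gives 10 mice a group, aged 8 to 10 months, but the labels do not say how many mice entered each library, nor the allele or its deleted part. Each group is therefore 1 library, no test was possible, and every difference below has no replicate check; intervals are 95% and cover counting error only.

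Igfbpl1 went against the labels, with 29 counts in the library labelled knockout, 2 in the library labelled wildtype and 0 in the macrophages of either, so the libraries are called by their labels throughout, KO-label and WT-label. In all, 7945713 UMIs were counted in the KO-label and 11020717 in the WT-label library. They shared 1 barcode sequence, which was not a macrophage in both. The macrophages summed to 269593 UMIs (median 5170 per barcode) in the library labelled knockout and 345451 (median 4420.5) in the library labelled wildtype. They were set against P2ry12-positive microglia of the same library, defined by at least 1 P2ry12 UMI and 0 of Mrc1, Pf4, Cd79a and Cd3g: 1340 barcodes with 6269405 UMIs under the knockout label and 2222 with 9468046 under the wildtype label.

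Border macrophages are the resident macrophages of the meninges, the perivascular spaces and the choroid plexus. They largely share a yolk sac ancestry with microglia and are known for taking up debris and soluble material, and a fraction of them presents antigen on MHC class II molecules to CD4 T cells. Class II chains are made together under the transactivator Ciita. The invariant chain Cd74 guards the peptide groove on the way to the endosome, H2-DM then loads the peptide, and H2-O restrains H2-DM. In the retina such cells lie along the vessels and at the ciliary margin, but position was not measured here.

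The genes of the rule describe the members and support nothing. The pooled level is given in CPM, counts per 1000000 UMIs of the population's sum. Mrc1, the mannose receptor, stood at 367.2 CPM in 42 of 49 macrophages under the knockout label and at 414 CPM in 47 of 66 under the wildtype label. Pf4, a platelet-type chemokine also made by macrophages, stood at 767.8 CPM in KO-label macrophages and 784.5 CPM in WT-label ones. Both genes were present in the same barcode in 31 KO-label and 39 WT-label members. Ms4a7, a membrane protein typical of border macrophages, was found in 49 of 49 KO-label and in 65 of 66 WT-label members. Mrc1 and Pf4 summed to exactly 2 in 17 KO-label and 15 WT-label members. Just outside the rule were 18 KO-label barcodes with 1 UMI of the pair and another marker, with 1827.4 CPM of Ms4a7 and 131500.9 CPM of Apoe, and 21 such WT-label barcodes, with 2240.9 CPM of Ms4a7 and 106570.5 CPM of Apoe. The rule left out 1 barcode in each library for a lymphocyte gene.

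Mrc1, Pf4, Ms4a7 and Apoe were present, whereas the other genes of perivascular macrophages were largely missing. Only 6 macrophages under the knockout label and 10 under the wildtype label held a count of Cbr2, Folr2, Cd163, Lyve1 or F13a1. Lyve1, a hyaluronan receptor of vessel-associated macrophages, had 0 counts in KO-label macrophages, which allows up to 11.1 CPM at 3 counts. Its 23 counts in WT-label macrophages lay in 1 barcode of 10328 UMIs. That barcode also held 5 counts of Folr2, 8 of Cbr2, 15 of F13a1, 4 of Timd4 and 1012 of Apoe, and 0 of Cd74, H2-Aa and P2ry12. The members are therefore called Mrc1/Pf4 macrophages, without a place in the tissue.

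Markers of other cell types were low. Of the 7 monocyte markers, among them Plac8, Ly6c2, Ccr2, Chil3, S100a4 and Vcan, 1 was detected in KO-label macrophages, with a summed level of 3.71 CPM, and 3 in WT-label macrophages, with 95.5 CPM. All 9 WT-label counts of Plac8 and all 13 of S100a4 came from 1 barcode of 8833 UMIs that also held 19 counts of Cd209a and 34 of the 35 of S100a6. The 7 dendritic cell markers summed to 29.7 CPM in KO-label and 107.1 CPM in WT-label macrophages, and the 5 T or NK cell markers to 0 and 5.79 CPM in the KO-label and WT-label macrophages. The rule itself set Cd3g of that list and Cd79a of the B cell list to 0. Neutrophil markers summed to 100.2 CPM in KO-label macrophages against 179.1 CPM in KO-label microglia, and to 60.8 CPM in WT-label macrophages against 186.4 CPM in WT-label microglia. The Mueller glia or astrocyte list stood at 263.4 CPM in the macrophages of either library, below the 597.5 CPM of KO-label and the 671.7 CPM of WT-label microglia. B cell, platelet, endothelial and rod lists summed to at most 26.0 CPM, and fibroblast, pericyte, bipolar, pigment epithelium and erythroid markers were at 0 in the macrophages of both libraries. No doublet caller was run.

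The class II promoters are shown because H2-Aa and H2-Eb1 were among the genes furthest apart from microglia, and the class II genes are known to share promoter elements that the Ciita complex reads, the X box and the Y box. RefSeq promoters (GRCm38.p6, 250 bases before to 50 after the start) were at hand for 8 of the 11 class II list genes. The pattern AACNNNTGA was searched as a core of the X box and GATTGG as that of the Y box; the patterns can share 2 letters but do not overlap in the windows shown, and both were written after the sequences had been seen. On either strand, AACNNNTGA was in 11.9% and GATTGG in 16.1% of 32851 promoters. The windows, 5′ to 3′ on the gene's strand with the matches in capitals, read as follows.
H2-Eb1 (chr17:34305758-34305826, plus): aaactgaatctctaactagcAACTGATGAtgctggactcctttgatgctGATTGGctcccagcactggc
H2-DMb1 (chr17:34153079-34153148, plus): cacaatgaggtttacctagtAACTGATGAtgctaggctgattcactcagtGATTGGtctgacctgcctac
H2-Ob (chr17:34238800-34238866, plus): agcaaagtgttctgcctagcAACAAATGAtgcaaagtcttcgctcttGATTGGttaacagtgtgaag
H2-Aa (chr17:34287853-34287922, minus): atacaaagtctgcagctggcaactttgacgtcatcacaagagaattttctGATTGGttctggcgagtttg
In H2-Eb1, H2-DMb1 and H2-Ob the 2 matches stood 20, 21 and 18 bases apart. Such a pair, in that order on the gene's strand and 5 to 30 bases apart, was in 26 of the 32851 promoters (0.0792%). Of the 8 genes 4 held the pair, the fourth being H2-DMb2, and H2-Aa, H2-DMa, H2-Eb2 and H2-Oa held only the Y pattern; H2-DMa has another promoter with neither. A match is a description of letters, not of a bound site.

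MHC class II genes stood far higher in the macrophages than in microglia, in both libraries. H2-Aa, the alpha chain of I-A, had 1717.4 CPM in KO-label macrophages against 13.6 CPM in KO-label microglia (126.7-fold, interval 100.3 to 161.6), and 3398.5 CPM in WT-label macrophages against 8.87 CPM in WT-label microglia (383.1-fold, interval 306.8 to 483.9). H2-Ab1, its beta chain, had 1517.1 CPM in KO-label macrophages against 67.2 CPM in KO-label microglia and 2897.7 CPM in WT-label macrophages against 56.1 CPM in WT-label microglia. H2-Eb1, the beta chain of I-E, had 1472.6 CPM in KO-label macrophages against 13.2 CPM in KO-label microglia and 3268.2 CPM in WT-label macrophages against 11.9 CPM in WT-label microglia. The invariant chain Cd74 had 5274.6 CPM in KO-label macrophages against 79.4 CPM in KO-label microglia (66.4-fold, interval 59.9 to 73.7) and 10901.7 CPM in WT-label macrophages against 114.1 CPM in WT-label microglia (95.6-fold, interval 89.3 to 102.4).

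The peptide loader did not share that gap. H2-DMa had 267.1 CPM in KO-label macrophages against 335.6 CPM in KO-label microglia, and 367.6 CPM in WT-label macrophages against 308.0 CPM in WT-label microglia. H2-DMb1, the other DM chain, had 233.7 CPM in KO-label macrophages against 168.1 CPM in KO-label microglia and 301.1 CPM in WT-label macrophages against 173.4 CPM in WT-label microglia. Both stayed within 2-fold. Of the 11 class II genes 6 were measured at 100 CPM or more, and 4 were at least 2-fold higher and 0 lower in each library, with a median log2 ratio of 5.28 in the KO-label and 6.14 in the WT-label library. H2-Aa, H2-Ab1 and H2-Eb1 in both libraries and Cd74 in the KO-label one reached 100 CPM only in the macrophages, and with no minimum beyond 3 counts the medians were 2.49 in the KO-label and 3.28 in the WT-label library. Over all genes the background was 6.26% of 1708 called higher under the knockout label and 5.42% of 1697 under the wildtype label, where a call is a 2-fold difference with 100 CPM or more in either sum. The median log2 ratio of all genes was -0.21 in the KO-label and -0.24 in the WT-label library.

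Antigen processing genes were not higher as a group. None of the 5 measured genes was called higher under the knockout label and 1 was under the wildtype label, the dendritic cell activation marker Cd83, with 379.2 CPM in WT-label macrophages against 188.1 CPM in WT-label microglia. In the KO-label library Cd83 had 274.5 CPM in macrophages against 230.6 CPM in microglia. Lgmn, a lysosomal protease, was lower in both, at 1654.3 CPM in KO-label macrophages against 3414.2 CPM in KO-label microglia and 1739.8 CPM in WT-label macrophages against 3598.2 CPM in WT-label microglia. Neither call held under every alternative: Cd83 had a log2 ratio of 0.63 in the macrophages without P2ry12 under the wildtype label, and Lgmn had -0.95 in the KO-label and -0.89 in the WT-label library with median-of-ratios scaling.

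**Figure D1:**
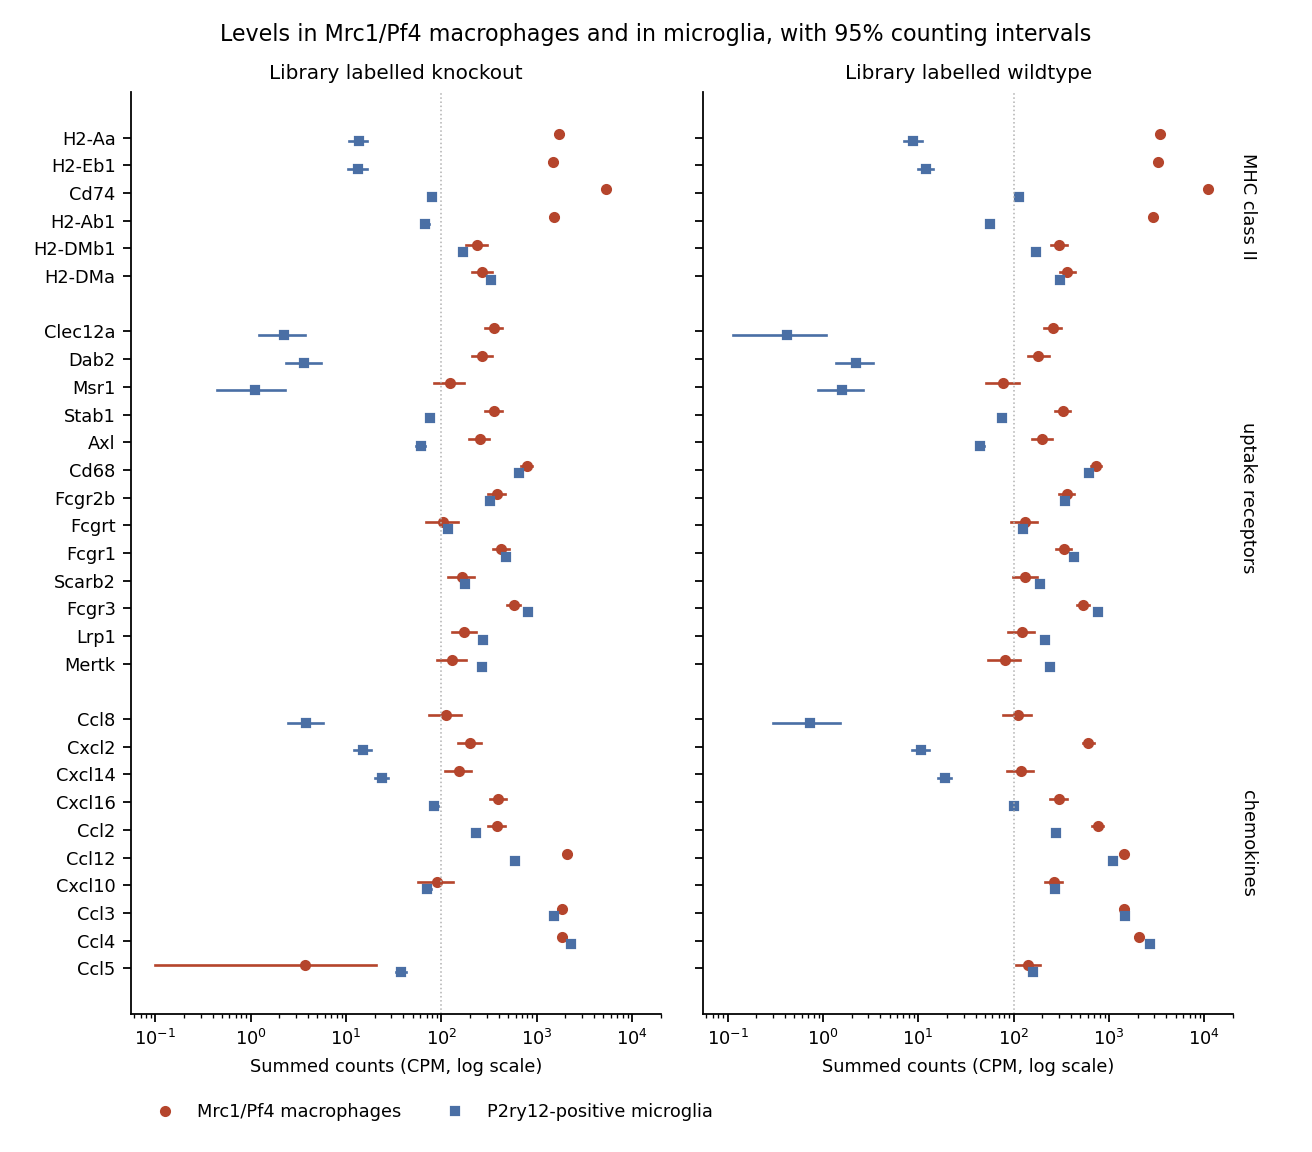
Levels in Mrc1/Pf4 macrophages (red) and P2ry12-positive microglia (blue) of each library, in CPM on a log axis, with exact Poisson intervals as bars; the panels are the libraries labelled knockout and wildtype. The class II chains and Clec12a, Dab2 and Msr1 stand apart between the populations, whereas Cd68, Fcgr2b, Ccl3 and Ccl4 lie close together.

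Class II was unevenly shared among the macrophages. Summing H2-Aa, H2-Ab1 and H2-Eb1, 21 of 49 macrophages under the knockout label held 5 UMIs or more (42.9%, interval 28.8 to 57.8), 8 held 1 to 4 and 20 held 0. Under the wildtype label 36 of 66 held 5 or more (54.5%, interval 41.8 to 66.9), 13 held 1 to 4 and 17 held 0. The median was 1 UMI in KO-label and 10.5 UMIs in WT-label macrophages, and the highest barcodes held 305 KO-label and 308 WT-label UMIs. The barcodes with 5 or more carried 99.4% of the 3 genes' UMIs and 97.2% of those of Cd74 in the KO-label library, and 99.3% and 97.8% in the WT-label library. At 3 to 7 UMIs, near the cut, lay 1 KO-label and 5 WT-label barcodes. Depth was close between the classes, with median totals of 5170 UMIs at 5 or more and 5075.5 below under the knockout label, and 4720.5 and 4103 under the wildtype label.

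**Figure D2:**
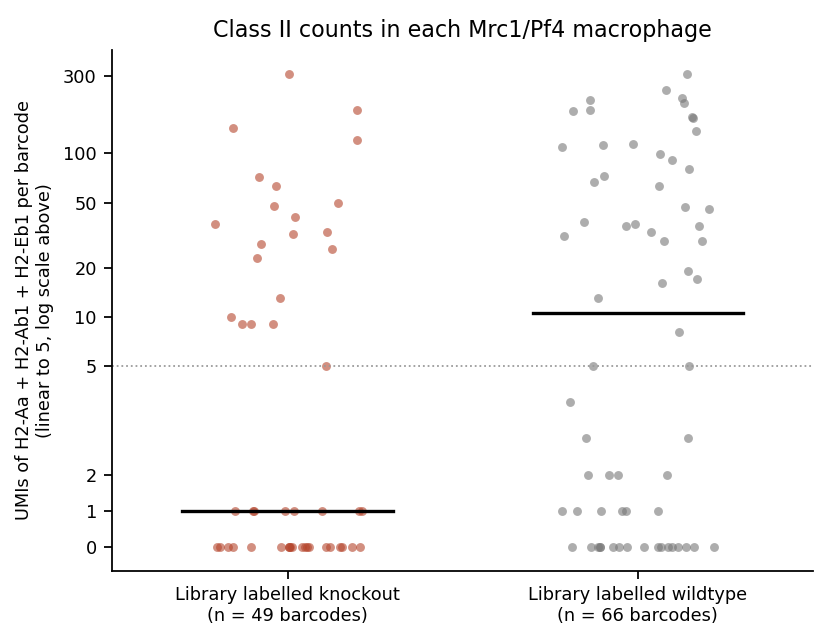
Summed UMIs of H2-Aa, H2-Ab1 and H2-Eb1 in each Mrc1/Pf4 macrophage, 1 point per barcode. The columns are the library labelled knockout (49 barcodes) and the library labelled wildtype (66 barcodes). Sideways spread within a column is random and carries no value, and black lines mark the medians. Points lie mostly at 0 or far above 5, with 1 KO-label and 5 WT-label barcodes at 3 to 7 UMIs.

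The class II classes, rich at 5 UMIs or more and poor below, are ranges of a count and not types. Fcrls was taken from the 15 lowest rich-over-poor ratios, and H2-DMb1, H2-DMa, Ccl2 and Cxcl10 from the 15 highest. Their counting intervals do not allow for that choice. Of 1591 genes compared under the knockout label, 89 stood 2-fold or more above the poor barcodes in the rich ones, and 121 below. Under the wildtype label 61 of 1533 stood above and 91 below. Fcrls was lower in the rich barcodes, with 609.6 CPM in the rich and 1458.7 CPM in the poor KO-label barcodes (ratio 0.418, interval 0.318 to 0.545) and 754.9 CPM in the rich and 1300.8 CPM in the poor WT-label ones (ratio 0.580, interval 0.465 to 0.723). Lyz2, a lysozyme, had a rich-over-poor ratio of 0.770 in the KO-label library (interval 0.713 to 0.831) and of 0.949 in the WT-label library (interval 0.887 to 1.015). Of the genes of the rule, Mrc1 had a ratio of 1.07 in the KO-label and 0.611 in the WT-label library, and Pf4 of 1.48 and 1.26 in the KO-label and WT-label libraries. Ms4a7 had 2367.2 CPM in the class II-rich and 2596.3 CPM in the class II-poor KO-label barcodes, and 2181.4 CPM in the rich and 2191.6 CPM in the poor WT-label ones. H2-DMb1 was 2.63 times as high in the rich as in the poor barcodes of the KO-label library (interval 1.502 to 4.764) and 4.46 times as high in the WT-label library (interval 2.52 to 8.48). H2-DMa followed, at 2.42 times in the KO-label and 2.69 times in the WT-label library. The monocyte attractant Ccl2 was 2.30 times as high in the KO-label and 2.03 times in the WT-label library. Without the 1 barcode richest in Ccl2, left out after seeing the data, the ratio was 1.61 in the KO-label (interval 1.014 to 2.594) and 1.17 in the WT-label library (interval 0.856 to 1.62), where that barcode held 89 of 263 counts. Cxcl10 was 2.755 times as high in the rich barcodes of the KO-label (interval 1.086 to 7.858) and 1.83 times in those of the WT-label library (interval 1.14 to 3.03). Of its 66 counts in the rich WT-label barcodes 60 lay in 1 barcode, against 25 counts in the poor ones. In the KO-label library 11 of its 17 counts in the rich barcodes lay in 1 barcode, against 7 in the poor ones. Neither Cxcl10 ratio is therefore a trait of the rich barcodes as a whole. Ccl12, Ccl8 and Cxcl2 took opposite directions in the 2 libraries. Ccl12 was 2.35-fold in the rich barcodes under the knockout label and 0.42-fold under the wildtype label, Ccl8 0.17-fold (KO-label) and 8.09-fold (WT-label), and Cxcl2 0.17-fold (KO-label) and 12.5-fold (WT-label). Few barcodes carry the counts of Ccl8 and Cxcl2. Of the 54 KO-label Cxcl2 counts 46 lay in 1 barcode, and of the 210 WT-label counts 63, 50 and 30 lay in the 3 richest. Without its richest barcode Cxcl2 had 7 counts in the rich and 1 in the poor KO-label barcodes, so its direction under the knockout label turned, and Ccl8 had a KO-label ratio of 0.636 (interval 0.1365 to 2.502).

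In the scavenger list, which also holds genes that are not uptake receptors, a subset was higher in the macrophages, Clec12a, Dab2 and Msr1 by far. The general phagocyte receptors were not higher by 2-fold. Clec12a, an inhibitory lectin receptor that binds uric acid crystals, had 356.1 CPM in KO-label macrophages against 2.23 CPM in KO-label microglia (159.5-fold, interval 90.6 to 302.6) and 257.6 CPM in WT-label macrophages against 0.423 CPM in WT-label microglia (609.8-fold, interval 230.0 to 2287.1). Dab2, a clathrin adaptor for lipoprotein receptors, had 267.1 CPM in KO-label macrophages against 3.67 CPM in KO-label microglia and 182.4 CPM in WT-label macrophages against 2.22 CPM in WT-label microglia. Msr1, the scavenger receptor for modified lipoproteins, had 122.4 CPM in KO-label macrophages against 1.12 CPM in KO-label microglia and 78.2 CPM in WT-label macrophages against 1.58 CPM in WT-label microglia. Stab1, which clears modified proteins and dying cells, had 356.1 CPM in KO-label macrophages against 75.3 CPM in KO-label microglia (4.73-fold, interval 3.76 to 5.90) and 327.1 CPM in WT-label macrophages against 76.5 CPM in WT-label microglia (4.28-fold, interval 3.48 to 5.22). In both libraries Axl, a receptor tyrosine kinase for apoptotic cells, was also higher, at 252.2 CPM in KO-label macrophages against 60.6 CPM in KO-label microglia and 199.7 CPM in WT-label macrophages against 44.7 CPM in WT-label microglia.

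Its relative Mertk went the other way, with 129.8 CPM in KO-label macrophages against 268.3 CPM in KO-label microglia and 81.1 CPM in WT-label macrophages against 239.8 CPM in WT-label microglia. Under the knockout label its log2 ratio was -1.05, and -0.950 with median-of-ratios scaling and -0.953 in the macrophages without P2ry12, just inside 2-fold. The lysosomal protein Cd68 had 786.4 CPM in KO-label macrophages against 655.1 CPM in KO-label microglia and 738.2 CPM in WT-label macrophages against 624.0 CPM in WT-label microglia. Fcgr3, an activating receptor for antibody, had 574.9 CPM in KO-label macrophages against 808.8 CPM in KO-label microglia and 532.6 CPM in WT-label macrophages against 762.2 CPM in WT-label microglia. The endocytic receptor Lrp1 had 174.3 CPM in KO-label macrophages against 270.8 CPM in KO-label microglia and 121.6 CPM in WT-label macrophages against 212.0 CPM in WT-label microglia. These 3 stayed within 2-fold. Of 13 scavenger genes measured under the knockout label 5 were called higher, 1 lower and 7 neither. Of 12 under the wildtype label 4 were higher, 1 lower and 7 neither. All genes called higher reached 100 CPM only in the macrophages: Clec12a, Dab2, Stab1 and Axl in both libraries and Msr1 under the knockout label. They were thus measured through the population where they were high. The shares over all genes were 6.26% higher and 12% lower in the KO-label library, and 5.42% and 10.6% in the WT-label library. The median log2 ratio was 0.24 in the KO-label and 0.05 in the WT-label library.

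The chemokines held by the macrophages were partly those of microglia. Ccl3 and Ccl4, inflammatory chemokines, stayed within 2-fold. Ccl3 had 1825.0 CPM in KO-label macrophages against 1501.7 CPM in KO-label microglia and 1438.7 CPM in WT-label macrophages against 1480.1 CPM in WT-label microglia. Ccl4 had 1862.1 CPM in KO-label macrophages against 2262.4 CPM in KO-label microglia and 2046.6 CPM in WT-label macrophages against 2669.4 CPM in WT-label microglia. Cxcl16, a membrane-bound chemokine that draws Cxcr6-bearing T cells, had 393.2 CPM in KO-label macrophages against 84.2 CPM in KO-label microglia (4.67-fold, interval 3.75 to 5.76) and 298.2 CPM in WT-label macrophages against 100.5 CPM in WT-label microglia (2.97-fold, interval 2.40 to 3.64). Cxcl14 had 152.1 CPM in KO-label macrophages against 23.8 CPM in KO-label microglia and 118.7 CPM in WT-label macrophages against 18.9 CPM in WT-label microglia.

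Several chemokines of monocytes and neutrophils were higher, though few barcodes carried Cxcl2 and KO-label Ccl8. Ccl8 had 111.3 CPM in KO-label macrophages against 3.83 CPM in KO-label microglia and 110.0 CPM in WT-label macrophages against 0.739 CPM in WT-label microglia, but 19 of its 30 counts under the knockout label lay in 1 barcode. The neutrophil attractant Cxcl2 had 200.3 CPM in KO-label macrophages against 14.99 CPM in KO-label microglia and 607.9 CPM in WT-label macrophages against 10.7 CPM in WT-label microglia. It was found in 6 of 49 KO-label and 12 of 66 WT-label macrophages. Ccl12 had 2095.8 CPM in KO-label macrophages against 597.2 CPM in KO-label microglia and 1421.3 CPM in WT-label macrophages against 1107.5 CPM in WT-label microglia. Ccl2 had 382.1 CPM in KO-label macrophages against 228.7 CPM in KO-label microglia and 761.3 CPM in WT-label macrophages against 278.7 CPM in WT-label microglia. Each passed 2-fold in 1 library, and that difference between libraries was not tested. In the macrophages without P2ry12 the log2 ratio of Ccl2 under the wildtype label was 0.80, below 2-fold. Ccl6 was lower in both, at 89.0 CPM in KO-label macrophages against 196.2 CPM in KO-label microglia and 81.1 CPM in WT-label macrophages against 204.5 CPM in WT-label microglia. In all, 5 of 10 measured chemokines were called higher and 1 lower under the knockout label, against 6.26% of all genes higher and 12% lower. Under the wildtype label 5 of 11 were higher and 1 lower, against 5.42% and 10.6% of all genes. Of the chemokines called higher, Ccl8, Cxcl2 and Cxcl14 in both libraries and Cxcl16 in the KO-label one reached 100 CPM only in the macrophages. Without the barcode richest in each gene, a setting chosen after seeing the data, 3 were called higher and 1 lower under the knockout label and 2 higher and 3 lower under the wildtype label, and the median log2 ratio of the chemokines was 0.25 in place of 1.28 under the knockout label and -0.40 in place of 0.36 under the wildtype label.

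Of the chemokine receptors, Ccr1, which binds Ccl3 among others, was higher in both libraries, at 293.0 CPM in KO-label macrophages against 53.6 CPM in KO-label microglia and 225.8 CPM in WT-label macrophages against 28.5 CPM in WT-label microglia. Cx3cr1, the fractalkine receptor of microglia, had 1632.1 CPM in KO-label macrophages against 3217.7 CPM in KO-label microglia and 1676.1 CPM in WT-label macrophages against 2816.3 CPM in WT-label microglia, within 2-fold.

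Some lipid genes stood higher too, of which Apoc1, Apoc4 and Pla2g7 were named for their rank among all genes and Plin2 after its value was seen. Apoe, the lipid carrier, had 133794.3 CPM in KO-label macrophages against 3267.0 CPM in KO-label microglia (41.0-fold, interval 40.3 to 41.7) and 105838.5 CPM in WT-label macrophages against 1181.3 CPM in WT-label microglia (89.6-fold, interval 87.7 to 91.5). Its neighbours on chromosome 7 were high as well, within 19678083 to 19699188 of GRCm38. Apoc1 had 363.5 CPM in KO-label macrophages against 13.1 CPM in KO-label microglia and 1042.1 CPM in WT-label macrophages against 0.845 CPM in WT-label microglia. Apoc4 had 345.0 CPM in KO-label macrophages against 10.4 CPM in KO-label microglia and 266.3 CPM in WT-label macrophages against 1.58 CPM in WT-label microglia. Abca1, which exports cholesterol to apolipoproteins, had 226.3 CPM in KO-label macrophages against 59.3 CPM in KO-label microglia and 191.1 CPM in WT-label macrophages against 54.5 CPM in WT-label microglia. Plin2, which coats lipid droplets, had 163.2 CPM in KO-label macrophages against 56.0 CPM in KO-label microglia and 130.3 CPM in WT-label macrophages against 40.1 CPM in WT-label microglia. Pla2g7, the hydrolase of platelet-activating factor, had 326.4 CPM in KO-label macrophages against 6.06 CPM in KO-label microglia and 202.6 CPM in WT-label macrophages against 4.65 CPM in WT-label microglia. Against 6.26% of all genes called higher in the KO-label library, 5 of 11 measured iron and lipid genes were called higher there and 1 lower. In the WT-label library 4 of 10 were higher and 0 lower, against 5.42% of all genes higher. The lower gene was the fatty acid carrier Fabp5, with 22.3 CPM in KO-label macrophages against 121.1 CPM in KO-label microglia, where 397 of its 759 counts lay in 1 barcode. The KO-label call of Abca1 was lost after thinning to 1000 UMIs, with a log2 ratio of 0.81.

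Microglial genes were lower, though not all. Of 20 measured, 14 were called lower, 5 neither and 1 higher in each library, against a background of 12% of all genes called lower in the KO-label and 10.6% in the WT-label library. Sparc, a matrix glycoprotein, had 118.7 CPM in KO-label macrophages against 2579.8 CPM in KO-label microglia (ratio 0.046, interval 0.031 to 0.065) and 199.7 CPM in WT-label macrophages against 2574.4 CPM in WT-label microglia (ratio 0.078, interval 0.060 to 0.098). The transcription factor Sall1 had 7.42 CPM in KO-label macrophages against 270.5 CPM in KO-label microglia and 11.6 CPM in WT-label macrophages against 224.2 CPM in WT-label microglia. The fructose transporter Slc2a5 had 14.8 CPM in KO-label macrophages against 245.5 CPM in KO-label microglia and 8.68 CPM in WT-label macrophages against 188.5 CPM in WT-label microglia. Tmem119 had 200.3 CPM in KO-label macrophages against 1309.4 CPM in KO-label microglia and 295.3 CPM in WT-label macrophages against 1258.9 CPM in WT-label microglia.

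Fcrls, an Fc receptor-like gene listed with microglia, was the exception. It had 1060.9 CPM in macrophages against 155.8 CPM in microglia (6.81-fold, interval 5.95 to 7.77) under the knockout label and 978.4 CPM in macrophages against 217.5 CPM in microglia (4.50-fold, interval 3.998 to 5.05) under the wildtype label.

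After each barcode was thinned to 1000 UMIs, Fcrls was found in 61.2% of macrophages (interval 46.2 to 74.8), 11.6% of microglia and 6.45% of lymphocytes under the knockout label, and in 51.6% of macrophages, 15.8% of microglia and 4.35% of lymphocytes under the wildtype label. Unthinned, 91.8% of KO-label macrophages and 27.1% of KO-label microglia held it, and 80.3% of WT-label macrophages and 33.4% of WT-label microglia. So the higher Fcrls level came with more barcodes holding the gene.

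The shares of microglial genes in the macrophages were close to those in lymphocytes or below them. P2ry12, part of the microglia definition, was found in 16.3% of KO-label macrophages and 19.4% of KO-label lymphocytes, and in 15.6% of WT-label macrophages and 17.4% of WT-label lymphocytes. Lymphocytes should lack it, so a share at or below theirs is read as background, whose source was not tested. In T cells alone, the lymphocytes with Cd3g and no Cd79a, P2ry12 was in 4.55% of 22 KO-label barcodes (interval 0.115 to 22.8) and in 16.7% of 6 WT-label barcodes, and Tmem119 in 13.6% of the KO-label ones (interval 2.91 to 34.9), so under the knockout label the macrophage shares of both lay above those of T cells, with overlapping intervals. Sparc was in 12.2% of KO-label macrophages and 38.7% of KO-label lymphocytes, and in 15.6% of WT-label macrophages and 21.7% of WT-label lymphocytes. Tmem119 was in 20.4% of KO-label macrophages and 22.6% of KO-label lymphocytes, and in 18.8% of WT-label macrophages and 17.4% of WT-label lymphocytes, a gap within their intervals. Apoe was in 100% of KO-label macrophages, 16.6% of microglia and 35.5% of lymphocytes, and in 98.4%, 9.95% and 21.7% of those WT-label populations. Its level was also higher in lymphocytes than in microglia, at 9580.8 against 3267.0 CPM in the KO-label and 2020.0 against 1181.3 CPM in the WT-label library. These shares cannot tell whether some microglia express Apoe, which was not tested. Median depths before thinning were 5170, 4512 and 4392.5 UMIs in KO-label macrophages, microglia and lymphocytes, and 4420.5, 4062.5 and 3386 UMIs in the WT-label ones. Thinning left out 0, 16 and 3 of the KO-label and 2, 20 and 0 of the WT-label barcodes.

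**Figure D3:**
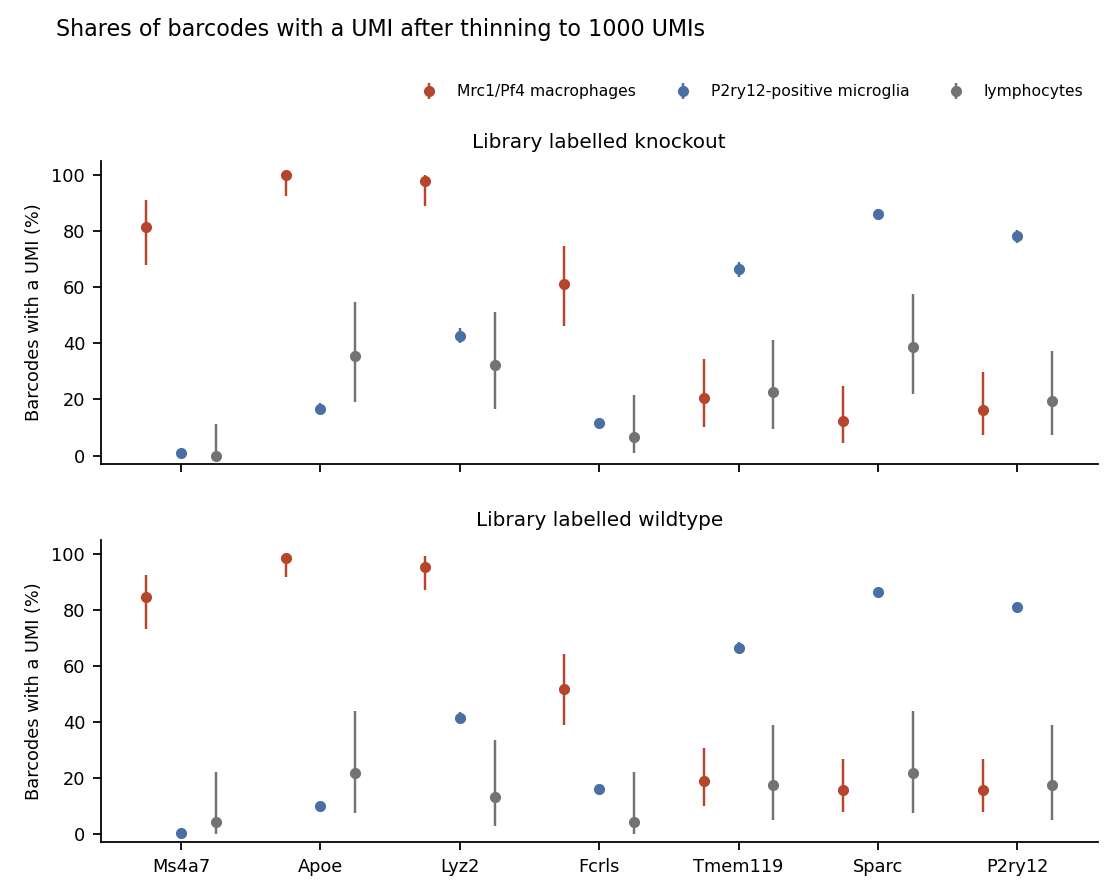
Share of barcodes with at least 1 UMI of each gene after thinning to 1000 UMIs, in Mrc1/Pf4 macrophages, P2ry12-positive microglia and lymphocytes of each library, with exact Clopper-Pearson intervals. Ms4a7, Apoe, Lyz2 and Fcrls are most frequent in macrophages, and the macrophage shares of Tmem119, Sparc and P2ry12 lie at or below the lymphocyte shares within the intervals.

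Before thinning, P2ry12 was held by 23 of 49 KO-label and 39 of 66 WT-label macrophages. These had more UMIs, with a median of 6093 with P2ry12 and 3464 without in the KO-label library, and 5966 with and 3583 without in the WT-label library. Ms4a7 stood at 2449.9 CPM with P2ry12 and 2554.1 CPM without in the KO-label library, and at 1936.1 CPM with and 2742.8 CPM without in the WT-label library. Sparc stood at 142.4 CPM with and 79.2 CPM without in the KO-label library, and at 234.7 CPM with and 121.7 CPM without in the WT-label library. Whether some of these barcodes hold a microglial cell besides a macrophage was not tested.

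Interferon-responsive genes also stood higher than in microglia. Of the measured genes 6 of 10 were called higher in the KO-label and 6 of 9 in the WT-label library, and 0 lower in either. Bst2, which tethers budding virus, had 2155.1 CPM in KO-label macrophages against 525.2 CPM in KO-label microglia and 1942.4 CPM in WT-label macrophages against 449.2 CPM in WT-label microglia. Ifitm3, an antiviral membrane protein, had 1090.5 CPM in KO-label macrophages against 357.8 CPM in KO-label microglia and 958.2 CPM in WT-label macrophages against 298.7 CPM in WT-label microglia. The transcription factor Irf7 had 155.8 CPM in KO-label macrophages against 53.3 CPM in KO-label microglia and 150.5 CPM in WT-label macrophages against 62.2 CPM in WT-label microglia. The median log2 ratio of the list was 1.18 in the KO-label and 1.28 in the WT-label library. In the complement list 1 of 9 was called higher in each library, while 3 KO-label and 1 WT-label genes were lower. The higher gene was C4b, with 174.3 CPM in KO-label macrophages against 12.9 CPM in KO-label microglia and 130.3 CPM in WT-label macrophages against 6.97 CPM in WT-label microglia. Over all genes 6.26% were called higher and 12% lower in the KO-label library, and 5.42% and 10.6% in the WT-label library. A count of 1 in 9 cannot be told from these shares. None of the 13 immediate early genes, which respond to tissue dissociation, was called in either library. Nor was any of the 11 measured genes of the transcription factor list. The transcription factors Sall1, lower in the macrophages, and Irf7, higher there, were counted in the microglial and interferon lists.

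Of the genes called higher, 77 were called in both libraries, which is 72.0% of the 107 under the knockout label and 83.7% of the 92 under the wildtype label. Of those called lower, 123 were in both, 60.0% of 205 KO-label and 68.3% of 180 WT-label genes. The genes highest in both, beside those above, were Ifi203, Mndal and Klra2, whose reads may be shared with near-identical relatives. Mndal and Ifi203 also overlap on chromosome 1, so their split is uncertain.

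The macrophages were set beside the populations most like them, barcodes with 5 or more class II UMIs but no Mrc1 or Pf4 (20 KO-label and 16 WT-label) and monocyte-like barcodes with at least 2 UMIs of Plac8, Ly6c2 and Ccr2 together (58 KO-label and 24 WT-label). These populations overlap with the microglia: 4 class II-high barcodes in each library, 24 monocyte-like KO-label and 12 monocyte-like WT-label barcodes also counted as P2ry12-positive microglia. Most of the 13 scavenger list genes at 100 CPM or more in the macrophages of either library stood higher there, and some did not. By any amount, 13 were higher in KO-label macrophages than in class II-high barcodes and 11 than in monocyte-like ones. In the WT-label library 11 and 9 of the 13 were. Those at least 2-fold higher numbered 9 and 6 in the KO-label and 5 and 6 in the WT-label library. In WT-label macrophages 2 genes were at least 2-fold lower than in class II-high barcodes. As the 13 were chosen through the macrophages and no share over all genes is given, these counts are description only. Lrp1 had 174.3 CPM in KO-label macrophages against 308.5 CPM in KO-label monocyte-like barcodes, and 121.6 CPM in WT-label macrophages against 202.4 CPM in WT-label monocyte-like barcodes. Fcgr1 had 335.8 CPM in WT-label macrophages against 697.9 CPM in class II-high and 445.4 CPM in monocyte-like WT-label barcodes. In those KO-label populations it had 422.9, 154.7 and 268.1 CPM. Msr1 had 122.4 CPM in KO-label macrophages against 8.60 CPM in KO-label class II-high barcodes, and 78.2 CPM in WT-label macrophages against 63.5 CPM in WT-label class II-high barcodes. Clec12a had 356.1 CPM in KO-label macrophages, 120.4 CPM in class II-high and 129.7 CPM in monocyte-like barcodes, and 257.6, 63.5 and 40.5 CPM in those WT-label populations. Dab2 had 267.1 CPM in KO-label macrophages, 34.4 CPM in class II-high and 0 CPM in monocyte-like barcodes, and 182.4, 31.7 and 0 CPM in those WT-label populations. Stab1 had 356.1, 25.8 and 14.4 CPM in the KO-label and 327.1, 47.6 and 27.0 CPM in the WT-label macrophages, class II-high and monocyte-like barcodes. Fcrls followed the same order in the KO-label library, at 1060.9, 77.4 and 25.9 CPM, and had 978.4 CPM in WT-label macrophages, 126.9 CPM in class II-high and 128.2 CPM in monocyte-like barcodes. Class II was high there too: Cd74 had 5274.6 CPM in KO-label macrophages against 17030.3 CPM in KO-label class II-high barcodes, and 10901.7 CPM in WT-label macrophages against 15386.3 CPM in WT-label class II-high barcodes, which were chosen by its partner genes. Apoe was shared in part, at 133794.3 CPM in KO-label macrophages against 53248.7 CPM in KO-label class II-high barcodes and at 105838.5 CPM in WT-label macrophages against 42653.4 CPM in WT-label class II-high barcodes. Some chemokines had higher values in a neighbouring population of 1 or both libraries. Cxcl16 had 393.2 CPM in KO-label macrophages against 644.8 CPM in KO-label class II-high barcodes, and 298.2 CPM in WT-label macrophages against 349.0 CPM in WT-label class II-high barcodes. Ccl12 had 2095.8 CPM in KO-label macrophages, 412.6 CPM in class II-high and 164.3 CPM in monocyte-like barcodes, but 1421.3, 2379.3 and 3158.1 CPM in those WT-label populations. Ccl8 had 111.3 CPM in KO-label macrophages against 51.6 CPM in KO-label class II-high barcodes, and 110.0 CPM in WT-label macrophages against 158.6 CPM in WT-label class II-high barcodes, from 10 counts. The interferon list summed to 5645.5 CPM in KO-label macrophages, 5734.1 CPM in class II-high and 9049.7 CPM in monocyte-like barcodes. In those WT-label populations it summed to 5022.4, 7899.4 and 8738.8 CPM. Its higher level than in microglia was therefore not particular to the macrophages. The interferon list and the genes named singly in this comparison were chosen after their values were seen.

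Between the libraries few genes of the macrophages were 2-fold apart. Of 1478 genes measured, 1.42% were called higher and 2.44% called lower under the knockout label. Class II chains were lower in KO-label macrophages. H2-Aa had 1717.4 CPM in KO-label macrophages against 3398.5 CPM in WT-label macrophages (ratio 0.505, interval 0.453 to 0.563). H2-Ab1 had 1517.1 CPM in KO-label macrophages against 2897.7 CPM in WT-label macrophages. H2-Eb1 had 1472.6 CPM in KO-label macrophages against 3268.2 CPM in WT-label macrophages (ratio 0.451, interval 0.401 to 0.506). Their chaperone Cd74 had 5274.6 CPM in KO-label macrophages against 10901.7 CPM in WT-label macrophages (ratio 0.484, interval 0.455 to 0.514). Of 6 measured class II genes 2 were called lower, and the median log2 ratio was -0.96. The share of class II-rich barcodes was 42.9% in KO-label and 54.5% in WT-label macrophages, with overlapping intervals. Within the rich barcodes the 3 chains summed to 9983.3 CPM in KO-label macrophages against 16078.5 CPM in WT-label macrophages and Cd74 to 10941.2 CPM in KO-label macrophages against 18058.9 CPM in WT-label macrophages. In the macrophages with at least 4 UMIs of the pair and 2 of another marker, the median log2 ratio was -0.46, and Cd74 and H2-Eb1 were within 2-fold, at -0.58 and -0.56. In the barcodes just outside the rule Cd74 stood at 9939.0 CPM in the KO-label against 13093.1 CPM in the WT-label library.

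None of the 13 scavenger genes was called in either direction between the libraries, with a median log2 ratio of 0.33. Over all genes 1.42% were called higher and 2.44% lower. A count of 0 in 13 cannot be told from these shares. Stab1 had 356.1 CPM in KO-label macrophages against 327.1 CPM in WT-label macrophages (ratio 1.09, interval 0.821 to 1.44) and Cd68 786.4 CPM in KO-label macrophages against 738.2 CPM in WT-label macrophages (ratio 1.07, interval 0.884 to 1.28). Of 10 chemokines 3 were called lower and 0 higher, against 2.44% and 1.42% of all genes. Ccl5, an attractant of T cells, had 1 count (3.71 CPM) in KO-label macrophages against 141.8 CPM in WT-label macrophages (ratio 0.026, interval 0.00065 to 0.153), but 45 of its 49 wildtype-label counts were in 1 barcode. Cxcl10, an interferon-induced attractant of T cells, had 89.0 CPM in KO-label macrophages against 263.4 CPM in WT-label macrophages, with 60 of its 91 wildtype-label counts in 1 barcode. Cxcl2 had 200.3 CPM in KO-label macrophages against 607.9 CPM in WT-label macrophages. In the macrophages without P2ry12 the log2 ratio of Cxcl2 was 0.24, of the other sign, and under the stricter membership so was that of Cxcl10, at 0.49. Counting intervals do not cover such barcode-to-barcode spread.

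The highest ratio was that of Cxcr4, the receptor of Cxcl12, with 152.1 CPM in KO-label macrophages against 23.2 CPM in WT-label macrophages (6.57-fold, interval 3.04 to 16.2) and counts in 17 of 49 KO-label against 8 of 66 WT-label macrophages. Ch25h, which makes an oxidised cholesterol, had 137.2 CPM in KO-label macrophages against 37.6 CPM in WT-label macrophages (3.65-fold, interval 1.90 to 7.48). Among the lowest were Apoc1, at 363.5 CPM in KO-label macrophages against 1042.1 CPM in WT-label macrophages (ratio 0.349, interval 0.276 to 0.437), and Ccrl2, a non-signalling chemerin receptor, at 133.5 CPM in KO-label macrophages against 367.6 CPM in WT-label macrophages (ratio 0.363, interval 0.244 to 0.530). In the macrophages without P2ry12, the log2 ratio of Apoc1 turned to 0.97 and that of Ccrl2 was -0.16. Cells of 1 library are not replicates, and the libraries and their groups cannot be told apart. Among the 21 named genes that were 2-fold apart, 4 stayed so under each setting tried, apart from leaving out a gene's richest barcode, a setting that gave no value counting as a loss. Between macrophages and microglia 47 of 56 stayed so in the KO-label and 46 of 55 in the WT-label library.

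**Figure D4:**
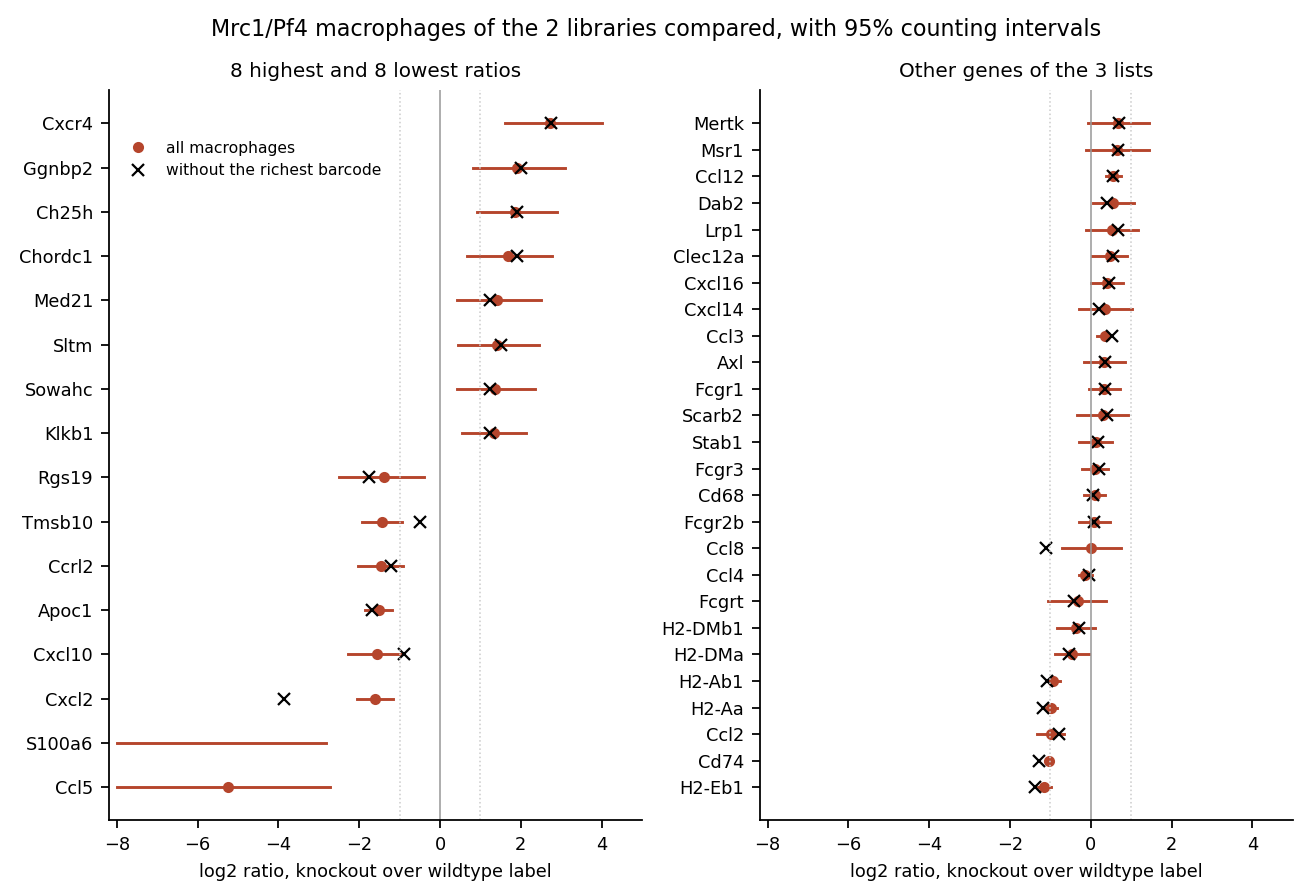
Log2 ratio, knockout label over wildtype label, within Mrc1/Pf4 macrophages, for the 8 highest and 8 lowest genes (left) and other genes of the scavenger, class II and chemokine lists (right), with counting intervals; crosses leave out the barcode richest in the gene in each library. Dotted lines mark 2-fold, bars of S100a6, listed at 0 under the knockout label, and of Ccl5 run past the axis, and Tmsb10 and Cxcl10 fall within 2-fold without their richest barcodes.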

How the data were processed

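Single-cell libraries were made with the 10x Chromium 3' kit, per the labels' protocols, 1 per group. The authors deposited raw counts (UMIs per gene and barcode), not normalized; Cell Ranger 3.1 and mm10 were used, per the submitters' processing notes. Whether introns were counted is not given in the sources used here.

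Barcodes were filtered and chosen as the report states, and raw counts were summed per population and given as CPM. Intervals are 95%: exact Poisson for sums, Clopper-Pearson for shares, the exact split of 2 counts for ratios. A ratio against 0 counts used a floor of 3 counts. A gene was called at 2-fold and 100 CPM in either sum, and genes of the rule were left out. A gene could thus be measured only through the population where it was high, in the lists as over all genes. With 1 library per group no test was made, and no doublets were called. Members and lists were chosen with earlier results of these data known. Of the scavenger, class II and chemokine lists all genes at 100 CPM in macrophages were eligible to be named, of other lists the most abundant gene, the 3 highest ratios and the 2 lowest, of all genes the 12 highest and 8 lowest in both libraries and the 8 highest and 8 lowest between libraries; ribosomal, mitochondrial, predicted and sex-linked genes were not ranked. Genes outside that rule (Ccl6, Tmem119, Lyz2, Irf7, Plin2 and the markers) were named after their values were seen; some genes of the lists are counted but not reported singly here. For class II-rich against class II-poor barcodes, genes were also taken from the 15 highest and 15 lowest ratios. Positions came from the GRCm38 annotation. Alternatives changed the cell filter, membership, P2ry12, the 99th percentile of UMIs, scaling, cell weights, thinning and the CPM minimum. Python 3.11.15, numpy 2.4.6, pandas 2.3.3, scipy 1.17.1 and matplotlib 3.10.9 were used, and the comparison step was tested on simulated data.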

Additional observations from a re-analysis of the deposited data

Results flagged for a closer look

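For 3 named genes the ratio of macrophages to microglia went in opposite directions in the 2 libraries, each with a counting interval that does not include 1; with 1 library per group the difference was not tested. Chordc1 had a log2 ratio of 0.75 under the knockout label and -0.99 under the wildtype label. The transcription factor Runx1 had 0.60 and -0.46, with 341.3 CPM in macrophages against 225.5 CPM in microglia under the knockout label and 162.1 against 223.3 CPM under the wildtype label. Tmsb10, an actin-binding peptide, had -1.23 and 0.34, and 88 of its 159 counts in macrophages under the wildtype label lay in 1 barcode.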

How the results depend on the processing

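No paired analysis was possible because each group was 1 library and the results come from no test. The called counts depend on depth: after thinning, the minimum rests on few counts, and the causes of other shifts were not tested. Of 56 and 55 named genes 2-fold apart between macrophages and microglia, 47 and 46 stayed so under each setting tried, apart from leaving out a gene's richest barcode; between libraries it was 4 of 21. The cell filter of 1000 UMIs, 500 genes and 10% mitochondrial counts moved no count by over 1.5 times; the share of macrophages was 2.93% in the KO-label and 2.43% in the WT-label library, and genes lower in WT-label macrophages numbered 176.

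The share of macrophages was 1.42% and 1.26% with stricter membership (at least 4 UMIs of the pair and 2 of another marker) and 1.48% and 1.00% without P2ry12-holding members, under the knockout and wildtype labels. Genes higher in macrophages than microglia under the knockout label, 107 in the report, numbered 249 after thinning to 1000 UMIs, 195 at a minimum of 50 CPM and 3690 with no minimum beyond 3 counts; genes lower, 205, numbered 340, 434 and 1636. Under the wildtype label the higher genes, 92, numbered 142, 156 and 3947, and the lower, 180, numbered 319, 401 and 1762, or 305 without P2ry12-holding members. Between libraries 21 genes were higher and 36 lower. They numbered 54 and 71 with stricter membership, 150 and 128 without P2ry12-holding members, 283 and 203 after thinning, 142 and 122 at 50 CPM, and 947 and 1026 with no minimum. With each cell equal 40 were higher, and without the barcode richest in the gene, chosen after seeing the data, 13.

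Median log2 ratios moved as follows. With no minimum the scavenger list had 2.15 and 2.16 under the knockout and wildtype labels, and class II 2.49 and 3.28. Class II under the knockout label had 5.03 below the 99th percentile of UMIs, 5.72 against microglia with 3 P2ry12 UMIs and 4.96 without the richest barcode. Class II under the wildtype label had 5.76 with stricter membership, 6.52 without P2ry12-holding members, 6.29 with median-of-ratios scaling, 6.39 with each cell equal, 6.28 after thinning and 5.69 at 50 CPM. Between libraries class II had -0.46 with stricter membership, -1.26 without P2ry12-holding members, -0.79 with no minimum and -1.13 without the richest barcode. Chemokines under the knockout label had 0.91 below the 99th percentile, 0.96 with each cell equal, 1.51 after thinning, 0.74 at 50 CPM, 0.93 with no minimum and 0.25 without the richest barcode. Under the wildtype label they had 0.56 with stricter membership, 0.84 without P2ry12-holding members, 0.51 with median-of-ratios scaling, 0.16 at 50 CPM and -0.40 without the richest barcode. Between libraries they had 0.54 without P2ry12-holding members.

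Some genes changed sign. Fabp5, at -2.44 under the knockout label, where 397 of 759 microglial counts lay in 1 barcode, had 0.85 below the 99th percentile, 1.40 against microglia with 3 P2ry12 UMIs and 0.82 after thinning. S100a6 under the wildtype label had -0.83 without its richest barcode. Between libraries Apoc1 had 0.97, Cxcl2 0.24 and Rgs19 0.67 without P2ry12-holding members, and Cxcl10 0.49 with stricter membership.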
